A study of Zea mays with 12 samples.

Results

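The genes described here are those whose change between 10 and 15 days after pollination (DAP) differed between 2 maize lines, the transgenic line L100 and its wild type, the inbred Q319. RNA from whole seeds was sequenced in 4 groups of 3 libraries, namely L100 at 15 DAP, L100 at 10 DAP, wild type at 15 DAP and wild type at 10 DAP, and all 12 libraries of the series were used. The labels do not give the transgene of L100, its promoter, the number of transformation events or how many plants or seeds went into a library, so the p-values below measure the spread between these libraries. For each gene the genotype by stage interaction was computed as the log2 change from 10 to 15 DAP in L100 minus the same change in wild type. A positive value therefore means that the stage change was more positive in L100. Of 41430 gene models, 24941 had enough counts to be tested, and 136 of these passed an adjusted p of 0.05 (edgeR quasi-likelihood F test, Benjamini-Hochberg adjustment over all genes tested).

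Between these stages the maize endosperm leaves its phase of rapid cell division and fills with starch and with zeins, the storage proteins of the starchy endosperm, while the embryo begins to accumulate storage globulins and oil body proteins. The DNA replication machinery, the histones and the ribosomal proteins are known to decline as division ends. Cytokinin, which promotes division in the young kernel, is removed by cytokinin oxidases. Whole seeds also hold maternal tissue, and in such bulk samples fewer cells of a type and less RNA per cell cannot be told apart.

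Libraries held 14014035 to 22370566 counts, and 3 counts, taken as the floor of detection, equalled 0.152 to 0.23 CPM (TMM-scaled counts per 1000000). Log2 levels of libraries within a group correlated at 0.937 to 0.976 in L100 at 15 DAP, 0.921 to 0.945 in L100 at 10 DAP, 0.953 to 0.968 in wild type at 15 DAP and 0.962 to 0.968 in wild type at 10 DAP. Replicates 1 and 2 of L100 at 15 DAP resembled each other most, with a chi-square per gene of 7, which is above counting error, against 12.2 to 43.3 in the other pairs. With their counts summed into 1 library, 17 genes passed the interaction test, all 17 of them among the 136. Below, that fit is called the summed fit, and a call said to be ended by it, by limma-voom (a test on log2 values, voom for short) or by library totals without TMM had an adjusted p above 0.05 there. The summed level of the 20 zein models was 110266 to 160172 CPM in L100 at 15 DAP, 2427 to 12689.8 CPM in L100 at 10 DAP, 80193 to 106159.7 CPM in wild type at 15 DAP and 5768 to 11208 CPM in wild type at 10 DAP.

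The stage changes of the 2 lines were positively but incompletely correlated. Across the 24941 genes the stage change in L100 correlated with that in wild type at 0.59 (Pearson) and 0.61 (Spearman), a description across genes, which are not independent replicates. The stage change alone passed the test for 6202 genes in L100 (24.9%; 3049 rose and 3153 fell) and for 7836 genes in wild type (31.4%; 4012 rose and 3824 fell). The interaction passed for 0.545% of the genes tested. An unadjusted p under 0.05 was reached by 4139 genes (16.6%), so a gene that did not pass was not shown to change alike in both lines. Of the 136 genes, 68 (0.273% of those tested) had a more positive stage change in L100 and 68 (0.273%) a more negative one. Scaled by library totals without TMM, the interaction count was 74, split into 48 and 26. An interaction of at least 1 on the log2 scale was reached by 121 of the 136 (63 positive and 58 negative). The median absolute interaction was 1.65 among the 136 genes and 0.37 among all genes tested. Over all genes tested the median absolute stage change was 0.42 in L100 and 0.48 in wild type.

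**Figure D1:**
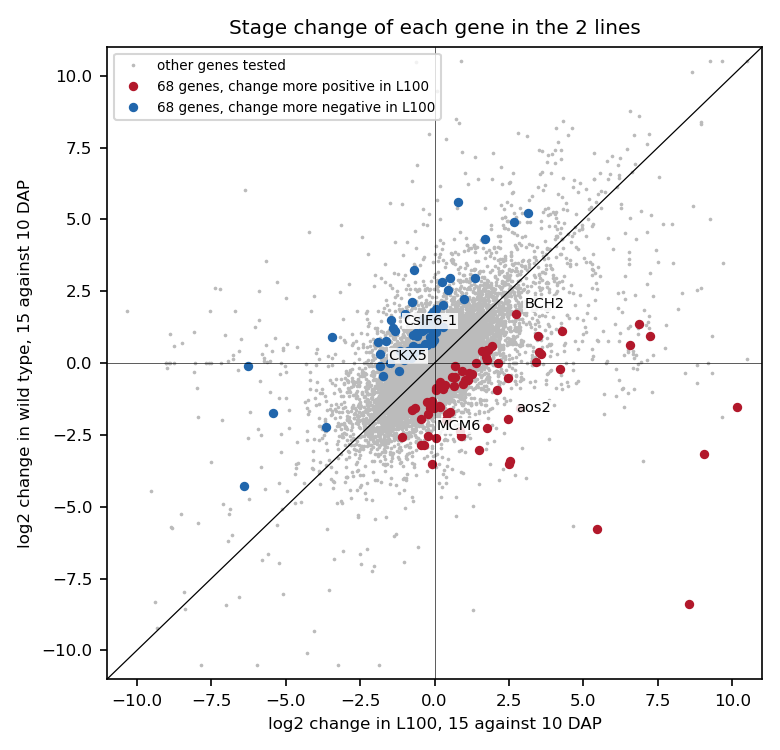
Each point is 1 of 24941 genes, with its log2 change between 10 and 15 DAP in L100 on the horizontal axis and in wild type on the vertical axis (values beyond the frame are drawn at its edge). The 68 red and 68 blue genes that passed the interaction test lie off the diagonal on either side, and the other genes tested are grey.

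The count changed with the library left out, and the cause of this was not tested. Leaving out replicate 1, 2 or 3 of L100 at 15 DAP gave 22, 17 or 162 calls, and of L100 at 10 DAP 86, 22 or 221. Leaving out replicate 1, 2 or 3 of wild type at 15 DAP gave 54, 13 or 110 calls, and of wild type at 10 DAP 29, 11 or 19. All 136 genes kept the sign of their interaction in every one of these 12 fits. Of the 136, 28 passed in at least 6 of the 12 fits, 7 in all 12 and 7 in none. DESeq2 called 1076 genes (4.31%), including all 136, and limma-voom called 65 (0.261%), of which 62 were among the 136. At an adjusted p of 0.1 the count was 533.

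The 136 genes fell into classes by which line moved. L100 alone had a called stage change in 31 of them, with 18 that rose and 13 that fell between 10 and 15 DAP in L100. Wild type alone had one in 56, with 31 that rose and 25 that fell in wild type. Another 29 changed in opposite directions, of which 15 rose in L100 and fell in wild type, and 14 fell in L100 and rose in wild type. The remaining 20 changed the same way in both lines by unequal amounts, 12 rising and 8 falling. A change called in one line and missed in the other is tested here by the interaction itself.

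Among the called genes a whole group of 3 libraries often lay outside the range of the other 9. This held for 123 of the 136 (90.4%), against 31.2% of all genes tested, and the 136 had been chosen by the interaction in these same libraries. L100 at 15 DAP stood above all other libraries in 19 genes and below them in 18, and L100 at 10 DAP above in 11 and below in 16. Wild type stood apart more often, above in 36 and below in 33 at 15 DAP, and above in 13 and below in 20 at 10 DAP. Among all genes tested the shares above and below were 3.26% and 2.35% for L100 at 15 DAP, 4.46% and 4.15% for L100 at 10 DAP, 7.85% and 5.65% for wild type at 15 DAP, and 4.35% and 2.61% for wild type at 10 DAP.

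**Figure D2:**
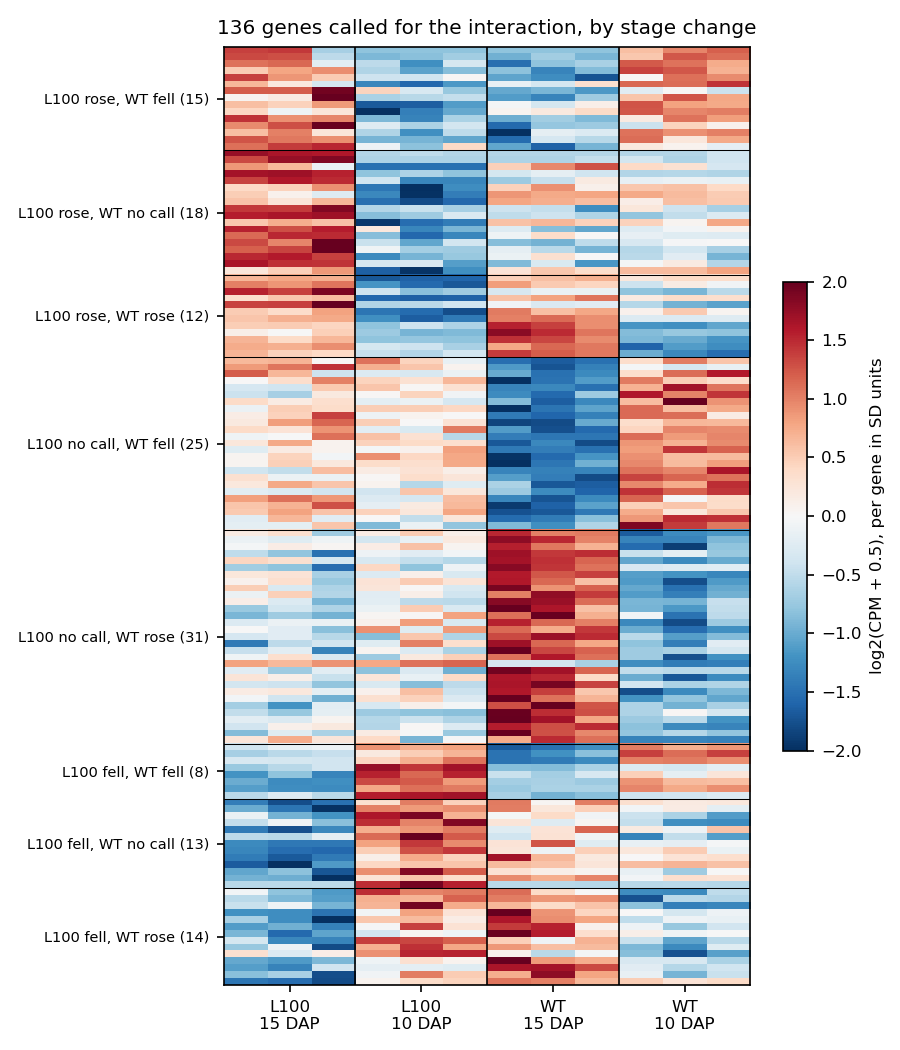
Rows are the 136 genes that passed the interaction test, grouped by their stage change in each line with the number of genes in brackets, and columns are the 12 libraries in replicate order. Colour is the log2(CPM + 0.5) level of the gene in units of its SD over the libraries, and the largest blocks are the 31 and 25 genes that moved with stage in wild type alone.

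DNA replication and cell cycle genes gave 3 calls among 40 tested, all 3 with a more positive stage change in L100 and none more negative, where 0.545% of all genes were called. At an unadjusted p of 0.05 the list had 7 positive and 5 negative interactions, against 1810 positive and 2329 negative among all 24941 genes tested. The same totals apply to the counts at this p in the lists below. MCM6 (GRMZM2G021069, chromosome 8:110042593-110048867, B73 RefGen_v3) encodes a subunit of the helicase that opens DNA for replication. It was at 19.8, 31.1 and 28.4 CPM in L100 at 15 DAP, 31.2, 31.1 and 29.6 CPM in L100 at 10 DAP, 4.19, 7.03 and 9.70 CPM in wild type at 15 DAP, and 50, 34.3 and 38.1 CPM in wild type at 10 DAP. All wild-type libraries at 15 DAP were below the other 9, and the stages overlapped in L100. The log2 stage change of MCM6 was -0.21 in L100 (adjusted p = 0.581) and -2.54 in wild type (adjusted p = 7.14e-05), and its interaction was 2.33 (SE 0.37, adjusted p = 0.0293). The call ended without L100 15 DAP replicate 2, L100 10 DAP replicate 2, wild type 15 DAP replicate 2 or any wild type 10 DAP library, with an adjusted p of at most 0.0822, and in the summed fit (adjusted p = 0.0588).

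MCM7 (GRMZM2G065205), another subunit of the same helicase, had 8.64, 10.9 and 8.13 CPM in L100 at 15 DAP, 14.2, 10.7 and 13.1 CPM in L100 at 10 DAP, 2.52, 3.27 and 4.14 CPM in wild type at 15 DAP, and 14.2, 12 and 12.1 CPM in wild type at 10 DAP. The wild-type libraries at 15 DAP were again the lowest of all. Its interaction of 1.49 (SE 0.29, adjusted p = 0.0493) stood close to the threshold and was called in a single leave-out fit, that without wild type 15 DAP replicate 3. Voom (adjusted p = 0.0614), library totals (0.0625), the summed fit (0.105) and the unrounded estimates (0.051) ended it. The D-type cyclin gene cycD2 (GRMZM2G075117) differed in another way, since its L100 libraries at 10 DAP were the lowest. It had 60.9, 64.4 and 70.2 CPM in L100 at 15 DAP, 40.2, 37.4 and 44.1 CPM in L100 at 10 DAP, 61.4, 65.2 and 62.5 CPM in wild type at 15 DAP, and 66.6, 66.6 and 69.1 CPM in wild type at 10 DAP. It rose by 0.68 in L100 (adjusted p = 0.000603), and the interaction was 0.78 (SE 0.14, adjusted p = 0.0419), kept only without L100 15 DAP replicate 3 or L100 10 DAP replicate 3. Voom (adjusted p = 0.0504) and the summed fit (0.0888) ended the call.

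The other 37 genes of that list did not pass, and PCNA and pcna2 are given with their values in view. PCNA (GRMZM2G030523), the sliding clamp of DNA polymerase, had an interaction of 1.29 (SE 0.30, adjusted p = 0.0753). It was at 7.70, 9.24 and 8.51 CPM in L100 at 15 DAP and 17.5, 16.9 and 25.8 CPM in L100 at 10 DAP, against 3.27, 3.88 and 4.55 CPM in wild type at 15 DAP and 27.2, 18.6 and 22.1 CPM in wild type at 10 DAP. PCNA fell in both lines, by 1.24 in L100 (adjusted p = 0.00142) and by 2.54 in wild type (adjusted p = 2.1e-05). Its copy pcna2 (GRMZM2G108712) gave 0.87 (adjusted p = 0.16), and reads of near-identical copies could be split between genes by the counting. In the whole list 23 genes fell with stage in L100 and 23 in wild type, 24 of 40 interactions were positive, and the median was 0.20 against 0.00 over all genes tested. Wild type at 15 DAP lay below the other 9 libraries in 8 of the 40 and above them in 1, against 5.65% and 7.85% of all genes tested. DESeq2 called 5 of the 40 and voom 1, against 4.31% and 0.261% of all genes tested. These 2 shares also apply to the lists below.

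Of 11 histone genes tested, 0 passed, 1 was positive at an unadjusted p of 0.05, and DESeq2 and voom called 0. Positive interactions were found for 10 of the 11, and the median was 0.34, with a median stage change of -1.07 in L100 and -1.57 in wild type. The linker histone gene his1a (GRMZM2G401308) had 860.0, 746 and 643 CPM in L100 at 15 DAP, 899, 887 and 1005 CPM in L100 at 10 DAP, 652, 778 and 756 CPM in wild type at 15 DAP, and 1776, 1689 and 1023 CPM in wild type at 10 DAP, and an interaction of 0.73 (adjusted p = 0.224). Of 25 ribosomal protein genes, 0 passed by edgeR, DESeq2 or voom, and 4 were positive at an unadjusted p of 0.05. Their median interaction was 0.31, 23 of 25 were positive, and 7 fell with stage in L100 against 16 in wild type. Wild type at 10 DAP lay above the other 9 libraries in 6 of the 11 histone genes and 11 of the 25 ribosomal protein genes. Among all genes tested it did so in 4.35%. The signs of these medians were the same under RLE scaling and library totals, and the histone median was between -0.02 and 0.61 over the 12 leave-out fits.

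**Figure D3:**
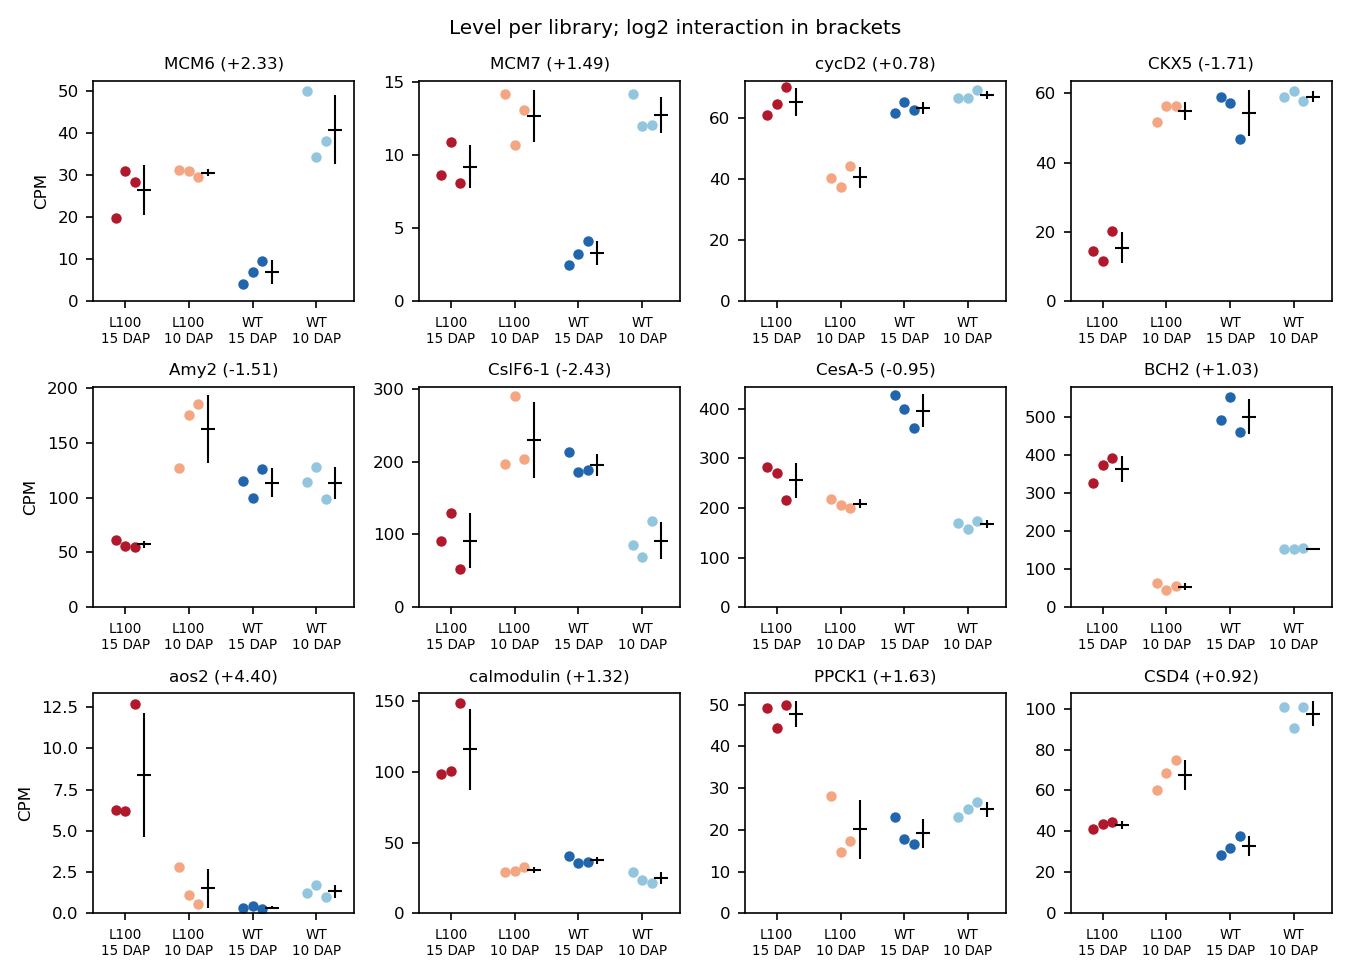
CPM per library (coloured points) with the mean and SD of 3 libraries (black) for 12 genes that passed the interaction test, and the log2 interaction in brackets. MCM6 and MCM7 are lowest in wild type at 15 DAP, and CKX5 and Amy2 are lowest in L100 at 15 DAP.

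CKX5 (GRMZM2G325612, chromosome 8:22250336-22254380) encodes a cytokinin oxidase. Its level was 14.6, 11.5 and 20.2 CPM in L100 at 15 DAP, 51.8, 56.4 and 56.3 CPM in L100 at 10 DAP, 58.9, 57.2 and 46.8 CPM in wild type at 15 DAP, and 58.8, 60.6 and 57.6 CPM in wild type at 10 DAP. The 3 L100 libraries at 15 DAP lay far below the other 9, which had 46.8 to 60.6 CPM. CKX5 fell by 1.83 in L100 (adjusted p = 5.3e-05), against a change of -0.12 in wild type (adjusted p = 0.626), which gave an interaction of -1.71 (SE 0.24, adjusted p = 0.0233). The call ended without L100 15 DAP replicate 1, L100 10 DAP replicate 2, wild type 15 DAP replicate 2 or any wild type 10 DAP library, with an adjusted p of at most 0.0594. CKX5 was the sole call in the list of auxin and cytokinin genes, of which 46 were tested, and which does not hold the called gene named AUX6. Their median interaction was -0.01, with 23 positive and 23 negative values. DESeq2 called 3 of the 46, where it called 4.31% of all genes tested. The cytokinin response regulator gene RR4 (GRMZM2G319187) had an interaction of 1.04 (adjusted p = 0.0963) and fell in wild type by 0.78 (adjusted p = 0.00731).

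The amylase gene Amy2 (GRMZM2G058310), which the reference table also lists as BMY1, was likewise lowest in L100 at 15 DAP. It was at 61.0, 56.0 and 55.0 CPM in L100 at 15 DAP and 127, 175 and 185 CPM in L100 at 10 DAP, against 115, 99.8 and 126 CPM in wild type at 15 DAP and 114, 128 and 98.3 CPM in wild type at 10 DAP. At 10 DAP the mean was 163 CPM in L100 and 113 CPM in wild type, though the libraries of the lines overlapped. Amy2 fell by 1.51 in L100 (adjusted p = 9.36e-05), while the stages overlapped in wild type (0.00, adjusted p = 0.987), and the interaction was -1.51 (SE 0.22, adjusted p = 0.0233). It was lost without L100 15 DAP replicate 1 or 2, L100 10 DAP replicate 2 or any wild type 10 DAP library (adjusted p at most 0.0647), and in the summed fit (adjusted p = 0.0588).

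CslF6-1 (GRMZM2G110145), named for the grass enzyme that makes mixed-linkage glucan, had 91.6, 129 and 53.2 CPM in L100 at 15 DAP, 197, 289.8 and 203 CPM in L100 at 10 DAP, 213, 186 and 188 CPM in wild type at 15 DAP, and 84.9, 69.7 and 119 CPM in wild type at 10 DAP. The stages separated in both lines but in opposite order, with a fall of 1.33 in L100 (adjusted p = 0.00733) and a rise of 1.10 in wild type (adjusted p = 0.0146). The interaction of -2.43 (SE 0.42, adjusted p = 0.0406) was kept only without L100 15 DAP replicate 2 or 3 or L100 10 DAP replicate 3. Library totals (adjusted p = 0.0588) and the summed fit (0.062) ended it. CesA-5 (GRMZM2G111642), a cellulose synthase catalytic subunit gene, rose in wild type by 1.25 (adjusted p = 4.73e-05). It had 282, 271 and 216 CPM in L100 at 15 DAP, 218, 207 and 200.3 CPM in L100 at 10 DAP, 428, 399 and 362 CPM in wild type at 15 DAP, and 170.5, 158 and 173 CPM in wild type at 10 DAP. Wild type at 15 DAP was the highest group, and the interaction was -0.95 (SE 0.18, adjusted p = 0.045), kept only without L100 15 DAP replicate 3 or wild type 15 DAP replicate 3. Library totals (adjusted p = 0.0726), the fit with no filter (0.0645) and the summed fit (0.0888) ended that call.

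In the jasmonate pathway, aos2 (GRMZM2G002178), which encodes an allene oxide synthase, had one of the larger interactions at 4.40 (SE 0.79, adjusted p = 0.0419). It was at 6.26, 6.19 and 12.7 CPM in L100 at 15 DAP, 2.83, 1.13 and 0.575 CPM in L100 at 10 DAP, 0.344, 0.432 and 0.253 CPM in wild type at 15 DAP, and 1.26, 1.74 and 0.974 CPM in wild type at 10 DAP. L100 at 15 DAP was the highest and wild type at 15 DAP the lowest group. The wild-type libraries at 15 DAP were near their counting floors of 0.152 to 0.185 CPM, so the size of this interaction rests in part on few counts. The call was kept only without L100 10 DAP replicate 1 or 3, and voom (adjusted p = 0.0856) and the summed fit (0.0835) ended it. Of 31 lipoxygenase and jasmonate genes tested aos2 was the sole call, and the list had a median interaction of -0.18 with 12 positive and 19 negative values. The lipoxygenase gene lox5 (GRMZM2G102760) ran the other way, at -1.31 (adjusted p = 0.117), with 17.4, 23.9 and 14.3 CPM in L100 at 15 DAP, 60.8, 88.5 and 41.7 CPM in L100 at 10 DAP, 31.3, 29.5 and 29.2 CPM in wild type at 15 DAP, and 36.1, 38.9 and 49.8 CPM in wild type at 10 DAP.

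A calmodulin gene (GRMZM2G149923), whose product binds calcium, had 98.7, 100.4 and 149 CPM in L100 at 15 DAP and 28.9, 30 and 32.9 CPM in L100 at 10 DAP, against 40.5, 35.3 and 36.5 CPM in wild type at 15 DAP and 29.4, 23.3 and 21.5 CPM in wild type at 10 DAP. It rose by 1.92 in L100 and by 0.60 in wild type, and the interaction was 1.32 (SE 0.24, adjusted p = 0.0419), kept only without L100 15 DAP replicate 3 or L100 10 DAP replicate 3 and ended by voom (adjusted p = 0.0567) and the summed fit (0.0683). PPCK1 (GRMZM2G178074), a kinase gene of phosphoenolpyruvate carboxylase, had 49.2, 44.3 and 49.8 CPM in L100 at 15 DAP, 28.2, 14.8 and 17.4 CPM in L100 at 10 DAP, 23.1, 17.9 and 16.5 CPM in wild type at 15 DAP, and 23.1, 25.1 and 26.6 CPM in wild type at 10 DAP. L100 at 15 DAP was above all other libraries in both genes. The interaction of PPCK1 was 1.63 (SE 0.30, adjusted p = 0.0447), kept only without L100 10 DAP replicate 1 and ended by the summed fit (adjusted p = 0.0986).

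BCH2 (GRMZM2G152135) encodes a beta-carotene hydroxylase, which makes xanthophylls from carotene in the endosperm. It was at 325, 373 and 390.3 CPM in L100 at 15 DAP, 64.8, 44.3 and 54.6 CPM in L100 at 10 DAP, 490.3, 551 and 459 CPM in wild type at 15 DAP, and 153, 153 and 155 CPM in wild type at 10 DAP. The stages did not overlap in either line, and at each stage L100 was below wild type. BCH2 rose by 2.73 in L100 (adjusted p = 1.87e-06) and by 1.70 in wild type (adjusted p = 2.07e-05), and the interaction was 1.03 (SE 0.20, adjusted p = 0.0498), kept only without L100 10 DAP replicate 1. It was the sole call among 11 carotenoid genes, 9 of which had a positive interaction, with a median of 0.35. RLE scaling, the fit without the robust option and the unrounded estimates each left 0 calls in this list, as did voom (adjusted p of BCH2 = 0.0567) and the summed fit (0.0986).

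Among further named calls, CSD4 (GRMZM5G895313, a copper and zinc superoxide dismutase gene) and EREB197 (GRMZM2G174784, of the AP2/ERF family of transcription factors) fell in both lines and fell further in wild type. CSD4 fell by 0.65 in L100 and by 1.57 in wild type (interaction 0.92, SE 0.18, adjusted p = 0.0473). EREB197 fell by 0.76 in L100 and by 1.64 in wild type (0.88, SE 0.17, adjusted p = 0.048). The plastid sigma factor gene sig3 (GRMZM5G830932) had 24.6, 26.5 and 24.9 CPM in L100 at 15 DAP, 18.4, 18.1 and 23.3 CPM in L100 at 10 DAP, 14, 12.5 and 14.1 CPM in wild type at 15 DAP, and 27.0, 19.7 and 21.9 CPM in wild type at 10 DAP. It was lowest in wild type at 15 DAP, with an interaction of 1.11 (SE 0.21, adjusted p = 0.0469). Of the genes listed under the names ROA4, GRF6, cki2 and AUX6, ROA4 fell by 1.10 in L100 and by 2.59 in wild type (1.49, SE 0.25, adjusted p = 0.0352), and GRF6 rose by 1.61 in L100, against 0.41 in wild type (adjusted p = 0.0639; interaction 1.20, SE 0.22, adjusted p = 0.0419). The gene cki2 rose by 0.65 in L100 and fell by 0.81 in wild type (1.46, SE 0.29, adjusted p = 0.048), and AUX6 had a change of 0.19 in L100 and fell by 0.67 in wild type (0.86, SE 0.17, adjusted p = 0.048).

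These calls were near the threshold, and most leave-out fits ended them. ROA4 was kept without L100 15 DAP replicate 3, L100 10 DAP replicates 1 or 3 or wild type 15 DAP replicate 3 and lost without any other library. GRF6 was kept only without L100 15 DAP replicate 3 or L100 10 DAP replicate 3, cki2 only without L100 10 DAP replicate 3 or wild type 15 DAP replicate 1, and CSD4 only without L100 10 DAP replicate 3 or wild type 15 DAP replicate 3. The calls of sig3 and EREB197 were kept only without L100 10 DAP replicate 3, and that of AUX6 was lost in every leave-out fit. The highest adjusted p over these fits was 0.0872 for ROA4 and 0.121 for EREB197 and cki2. Voom, library totals and the summed fit each ended the calls of sig3, CSD4, EREB197, cki2, AUX6 and GRF6, with adjusted p-values of 0.0507 for GRF6 to 0.0642 for EREB197 by voom and 0.0523 for GRF6 to 0.0634 for EREB197 by totals. The unrounded estimates also ended that of cki2 (adjusted p = 0.051). In the summed fit those 6 genes had adjusted p-values between 0.0986 and 0.111, and the call of ROA4 ended as well (0.0683).

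The interactions with the smallest p-values belonged to models with no gene name in the reference table, and 7 of them were called in all 12 leave-out fits. Maize_newGene_6786 (chromosome 7:146619101-146622304, minus strand) had the smallest. It was at 27.8, 32.9 and 29.5 CPM in L100 at 15 DAP, 0.231, 0.322 and 0.366 CPM in L100 at 10 DAP, 20.5, 25.2 and 29.6 CPM in wild type at 15 DAP, and 13.8, 17.8 and 16.7 CPM in wild type at 10 DAP. L100 at 10 DAP was near the counting floor while the other 9 libraries all had more than 13 CPM. The model rose by 6.57 in L100 and by 0.64 in wild type, and the interaction was 5.93 (SE 0.29, adjusted p = 2.81e-06).

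GRMZM2G133055 (chromosome 4:9807097-9808208, plus strand) had the strongest call in the other direction. It was at 1.81, 1.6 and 1.07 CPM in L100 at 15 DAP, 12.4, 17.5 and 19.1 CPM in L100 at 10 DAP, 39.9, 37.1 and 24.4 CPM in wild type at 15 DAP, and 20.2, 15.6 and 17.8 CPM in wild type at 10 DAP. The lines overlapped at 10 DAP and were far apart at 15 DAP. It fell by 3.43 in L100 and rose by 0.92 in wild type (interaction -4.35, SE 0.35, adjusted p = 0.000444). GRMZM2G133781 lies on the same chromosome at 6629863-6630834. It had 35.7, 30 and 62 CPM in L100 at 15 DAP, 72.9, 71.7 and 69.3 CPM in L100 at 10 DAP, 289, 297 and 228 CPM in wild type at 15 DAP, and 70.5, 54.1 and 61.3 CPM in wild type at 10 DAP. It fell by 0.74 in L100 and rose by 2.13 in wild type (interaction -2.87, SE 0.32, adjusted p = 0.0115).

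GRMZM2G178875 (chromosome 3:33796074-33797052) was high in a single group. It was at 1.0, 1.81 and 0.997 CPM in L100 at 15 DAP, 50.2, 55.2 and 59.7 CPM in L100 at 10 DAP, 0.688, 0.247 and 0.404 CPM in wild type at 15 DAP, and 1.33, 1.40 and 1.79 CPM in wild type at 10 DAP. It fell in both lines, by 5.43 in L100 and by 1.74 in wild type (interaction -3.69, SE 0.46, adjusted p = 0.0128). The size of the wild-type fall rests on few counts, since the counting floors were 0.152 to 0.185 CPM in wild type at 15 DAP. AC199541.4_FG007 (chromosome 1:78371788-78373209) was high in L100 at 15 DAP, with 20.4, 21.3 and 22.3 CPM, against 4.11, 4.50 and 6.06 CPM in L100 at 10 DAP, 5.22, 5.55 and 4.90 CPM in wild type at 15 DAP and 4.30, 5.28 and 6.12 CPM in wild type at 10 DAP. It rose by 2.12 in L100, with a stage change of 0.00 in wild type, which overlapped (interaction 2.13, SE 0.27, adjusted p = 0.0128).

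In the rest of the 8 strongest calls per direction, wild type moved more in some and L100 in others. GRMZM2G011347 rose by 1.70 in L100 and by 4.32 in wild type (-2.62, SE 0.33, adjusted p = 0.0128), and GRMZM2G166944 rose by 1.55 in wild type (-1.94, SE 0.26, adjusted p = 0.0206). GRMZM2G122277 fell by 1.83 in L100 (-2.14, SE 0.29, adjusted p = 0.0209), and GRMZM2G175140 fell by 1.57 in wild type (1.56, SE 0.22, adjusted p = 0.0233). GRMZM2G357834 rose by 2.45 in L100 (2.96, SE 0.43, adjusted p = 0.0233). Each of these 5 was lost without wild type 10 DAP replicate 2, GRMZM2G122277 also without wild type 15 DAP replicate 2, GRMZM2G175140 also without L100 15 DAP replicate 2 or wild type 10 DAP replicate 3, and GRMZM2G357834 also without L100 15 DAP replicate 2, L100 10 DAP replicate 2 or wild type 15 DAP replicate 2, with adjusted p-values up to 0.0566. The summed fit ended the call of GRMZM2G357834 (adjusted p = 0.0584).

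Some called models were detected in part of the groups. The examples given, with these values known, are the 4 in which a whole group had 0 counts. Maize_newGene_7340 was at 15.4, 12.9 and 12.3 CPM in L100 at 15 DAP, 0, 0.0536 and 0 CPM in L100 at 10 DAP, 0 in all 3 wild-type libraries at 15 DAP, and 0, 0 and 0.162 CPM in wild type at 10 DAP. Maize_newGene_261 was at 5.32, 9.38 and 11 CPM in L100 at 15 DAP, 0 in all 3 L100 libraries at 10 DAP, 0, 0 and 0.101 CPM in wild type at 15 DAP, and 0.19, 0 and 0.162 CPM in wild type at 10 DAP. Both were thus above the counting floor only in L100 at 15 DAP. The summed fit ended both calls, library totals that of Maize_newGene_7340 (adjusted p = 0.0521) and voom that of Maize_newGene_261 (0.0626). A model with all counts at 0 in a group has no finite fold, and its fitted interaction is not given. The other models of this kind were GRMZM2G381429, listed at 0 in L100 at 10 DAP, and Maize_newGene_8280, described with chromosome 9. Models named Maize_newGene were 7.35% of the called and 7.79% of the tested genes.

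The called genes were unevenly placed on the chromosomes. Chromosome 8 held 22 among 2259 genes tested (0.974%) and chromosome 7 had 4 among 1991 (0.201%). In windows of 10 Mb, 132 of 208 windows with at least 20 tested genes held no call. The window from 160 to 170 Mb of chromosome 8 held the most, 12 of 278 (4.32%), with 9 positive and 3 negative interactions, and that from 110 to 120 Mb of the same chromosome held 6 of 138 (4.35%). These windows were chosen for their calls, so the shares are a description.

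In the window from 160 to 170 Mb it was the L100 libraries at 10 DAP that stood apart. They lay below all other libraries in 8 of the 12 called genes and above them in 2. Among all 278 genes tested there, they were above the other 9 libraries in 34 (12.2%) and below in 30 (10.8%), against 4.46% and 4.15% of all genes tested. The part of this in the calls was not tested. In the window from 110 to 120 Mb, L100 at 10 DAP was above or below the other 9 libraries in 29 genes (21.0%). Among all genes tested it was above in 4.46% and below in 4.15%. The 29 did not include MCM6, AUX6 and ROA4, which were the 3 positive calls of that window, and its 3 negative calls are not described here. There wild type at 15 DAP was below the other 9 libraries for MCM6 and ROA4, and wild type at 10 DAP above them for MCM6 and AUX6.

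Among the calls between 160 and 170 Mb, GRMZM2G056986 (chromosome 8:167004729-167006120) had 6.01, 5.49 and 7.05 CPM in L100 at 15 DAP, 1.21, 1.23 and 1.88 CPM in L100 at 10 DAP, 3.96, 3.21 and 4.39 CPM in wild type at 15 DAP, and 9.04, 6.82 and 6.6 CPM in wild type at 10 DAP (interaction 3.05, SE 0.36, adjusted p = 0.0118). Maize_newGene_7558 (165351609-165356636) had 7.13, 5.21 and 7.74 CPM in L100 at 15 DAP, 0.694, 0.429 and 0.627 CPM in L100 at 10 DAP, 8.72, 8.26 and 7.42 CPM in wild type at 15 DAP, and 4.61, 7.28 and 6.77 CPM in wild type at 10 DAP (3.12, SE 0.37, adjusted p = 0.0118). In both, L100 at 10 DAP was the lowest group and the other 3 groups differed less. GRMZM2G045239 (167572413-167576205) rose by 4.29 in L100 and by 1.13 in wild type (3.16, SE 0.43, adjusted p = 0.022), and GRMZM2G005061 (165078474-165084150) rose by 1.13 in L100 and fell by 0.58 in wild type (1.71, SE 0.24, adjusted p = 0.0233). GRMZM2G045239 was lost without L100 10 DAP replicate 2, wild type 15 DAP replicate 2 or wild type 10 DAP replicate 2, and GRMZM2G005061 without L100 15 DAP replicate 1, wild type 15 DAP replicate 2 or wild type 10 DAP replicate 2.

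Other called genes between 160 and 170 Mb ran the opposite way, with L100 at 10 DAP the highest group. GRMZM2G172001 (164293621-164298127) had 26.5, 28.4 and 30.4 CPM in L100 at 15 DAP and 68.8, 60.9 and 67.0 CPM in L100 at 10 DAP, against 25.4, 25.2 and 27.5 CPM in wild type at 15 DAP and 31.7, 30.7 and 32.6 CPM in wild type at 10 DAP (-0.92, SE 0.14, adjusted p = 0.026). GRMZM2G050803 (164415910-164417118) had 4.74, 7.93 and 5.17 CPM in L100 at 10 DAP and at most 0.0767 CPM, below the counting floor, in each of the other 9 libraries (adjusted p = 0.0362). These last 2 genes were picked with their values in view, and their calls ended in the summed fit (adjusted p = 0.0683 for GRMZM2G172001 and 0.0588 for GRMZM2G050803), that of GRMZM2G050803 also by voom (0.0904). Of the 12 calls, 4 remained when L100 15 DAP replicate 1 or 2 was left out and 6 when L100 10 DAP replicate 2 was. Leaving out replicate 2 of wild type at 15 DAP kept 2. With replicate 1, 2 or 3 of wild type at 10 DAP left out, 6, 3 or 4 remained.

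**Figure D4:**
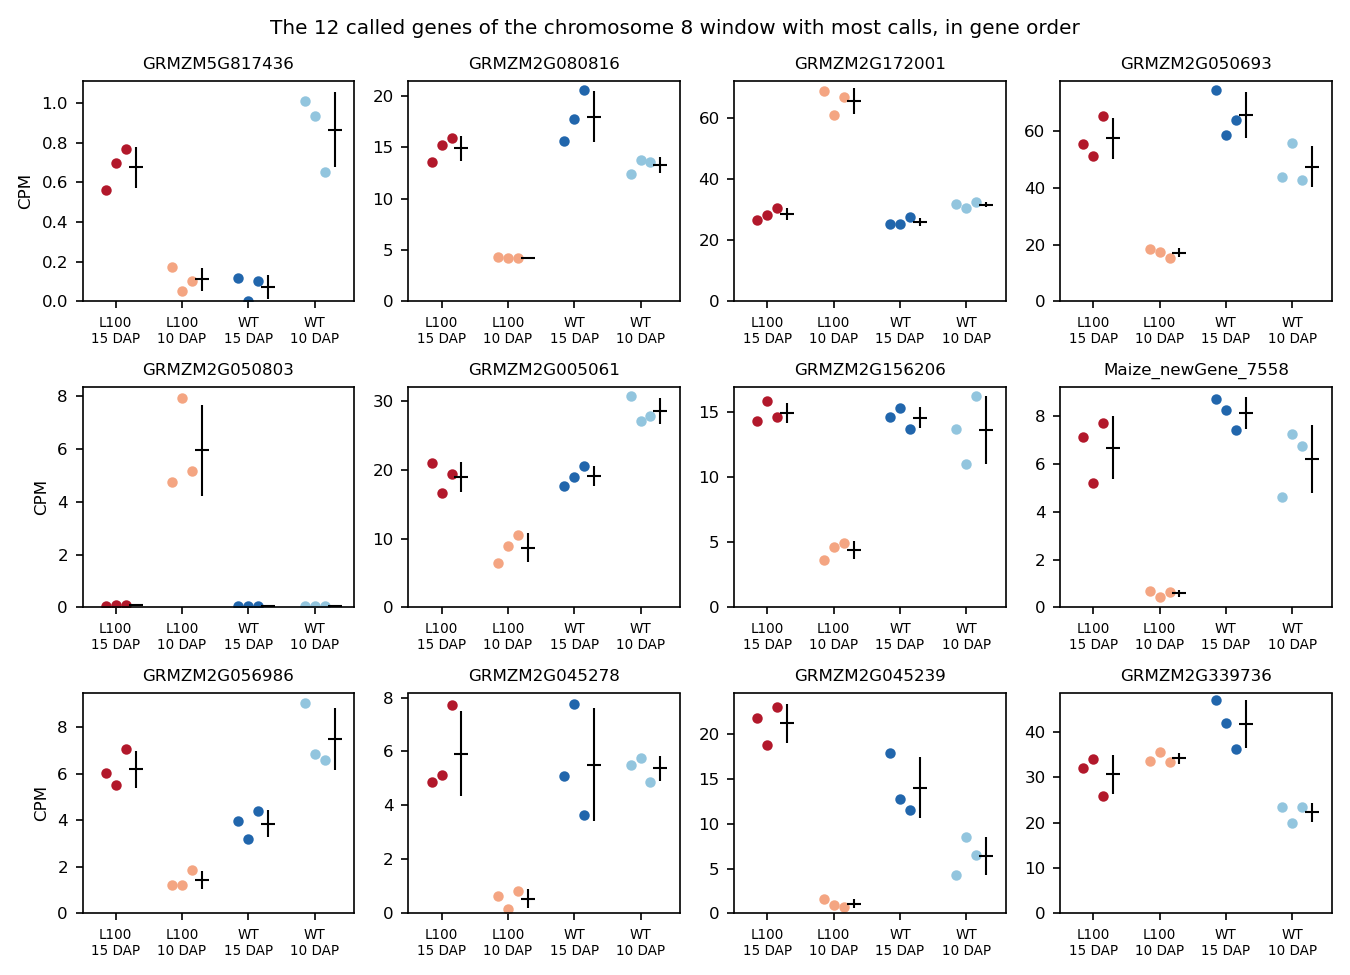
CPM per library (coloured points) with the mean and SD of 3 libraries (black) for the 12 called genes of chromosome 8 between 160 and 170 Mb, in gene order. L100 at 10 DAP is below all other libraries in 8 of them and above in 2.

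On chromosome 9 the windows from 110 to 120 Mb and from 120 to 130 Mb held 4 calls each (3.54% and 2.76%). A set of models there, picked with their values in view, was high in wild type at 10 DAP and in L100 at 15 DAP. Maize_newGene_8179 (chromosome 9:118694127-118701989) had 13.5, 12.7 and 0.537 CPM in L100 at 15 DAP, 0.116, 0.161 and 0.313 CPM in L100 at 10 DAP, 0.0573, 0.308 and 0.101 CPM in wild type at 15 DAP, and 4.17, 11.9 and 10.0 CPM in wild type at 10 DAP. Maize_newGene_8280 (121429111-121432855) had 4.07, 4.24 and 0.0767 CPM in L100 at 15 DAP, 0 in L100 at 10 DAP and in wild type at 15 DAP, and 1.58, 2.54 and 3.30 CPM in wild type at 10 DAP. GRMZM2G168392 (123618376-123620112) had 5.38, 5.70 and 1.30 CPM in L100 at 15 DAP, 0.867, 0.214 and 1.10 CPM in L100 at 10 DAP, 0.0573, 0.555 and 0.707 CPM in wild type at 15 DAP, and 6.13, 5.35 and 3.79 CPM in wild type at 10 DAP. In all 3 models L100 15 DAP replicate 3 lay well below replicates 1 and 2, near the groups that were low. Without L100 15 DAP replicate 1 or 2, all 3 calls ended, as they did by voom (adjusted p at most 0.186) and in the summed fit (at most 0.116). Library totals ended that of Maize_newGene_8280 (0.0621).

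Heat shock and chaperone genes had the most negative median interaction of the 19 lists after the photosynthesis genes (-1.53, 12 tested), yet no call. Of 24 tested, 0 passed by edgeR, 0 by voom and 8 by DESeq2, which called 4.31% of all genes tested. At an unadjusted p of 0.05, 13 were negative and 1 positive, where 2329 negative and 1810 positive of 24941 genes reached it. The lowest adjusted p was 0.068. Negative interactions were found for 19 of the 24, with a median of -1.15, a median stage change of 1.25 in L100 and 2.80 in wild type, and 12 genes that rose in L100 against 15 in wild type. Wild type at 15 DAP lay above the other 9 libraries in 13 of the 24, against 7.85% of all genes tested. The median stayed between -1.30 and -0.79 over the 12 leave-out fits, and 3 genes passed without wild type 15 DAP replicate 3.

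HSP90-1 (GRMZM2G024668), a chaperone gene, had 144, 71.7 and 185 CPM in L100 at 15 DAP, 125, 151 and 93.2 CPM in L100 at 10 DAP, 1613, 1024 and 566 CPM in wild type at 15 DAP, and 158, 167 and 144 CPM in wild type at 10 DAP. The heat shock transcription factor gene Hsf03 (GRMZM2G164909) had 2.82, 3.20 and 4.37 CPM in L100 at 15 DAP, 1.33, 0.911 and 1.78 CPM in L100 at 10 DAP, 29.8, 30.8 and 13.6 CPM in wild type at 15 DAP, and 2.09, 2.0 and 0.974 CPM in wild type at 10 DAP. In both genes the wild-type libraries at 15 DAP were the highest and replicate 3 was the lowest of them. The stage change of HSP90-1 was 0.12 in L100 (adjusted p = 0.854) and 2.77 in wild type (adjusted p = 0.000594), and its interaction was -2.66 (SE 0.55, adjusted p = 0.068). Hsf03 rose by 1.36 in L100 and by 3.88 in wild type (-2.52, SE 0.55, adjusted p = 0.0697).

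The disaggregase gene hsp101 (GRMZM2G360681) and the small heat shock protein gene hsp22 (GRMZM2G007729) rose in both lines. The level of hsp101 was 305, 126 and 227 CPM in L100 at 15 DAP and 27.9, 17.9 and 10.3 CPM in L100 at 10 DAP, against 3013, 1473 and 858 CPM in wild type at 15 DAP and 14.5, 24.3 and 17.1 CPM in wild type at 10 DAP. It rose by 3.55 in L100 and by 6.58 in wild type (-3.03, SE 0.72, adjusted p = 0.0933). The change of hsp22 was 2.69 in L100 and 4.12 in wild type (-1.44, SE 0.43, adjusted p = 0.14). The endoplasmic reticulum folding genes, 15 tested, had 0 calls by edgeR, DESeq2 or voom, a median interaction of -0.05 and 2 negative values at an unadjusted p of 0.05. Among them b-70 (GRMZM2G114793), the gene of the binding protein BiP, gave -0.60 (SE 0.26, adjusted p = 0.274).

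Of 17 zein genes tested 16 rose in L100 and 17 in wild type, with a median change of 5.30 in L100 and 6.26 in wild type. By edgeR, DESeq2 and voom 0 passed the interaction test, as did 0 at an unadjusted p of 0.05, and the median interaction was -0.57. That median was between -0.97 and 0.62 over the leave-out fits, so its sign depended on single libraries. L100 at 15 DAP lay above the other 9 libraries in 6 of the 17 and below them in 0, against 3.26% and 2.35% of all genes tested. Zeins form families of near-identical copies, between which the counting could split reads. The 27-kDa gamma-zein gene gz27 (GRMZM2G138727) was at 52817, 53384 and 72747 CPM in L100 at 15 DAP, 7594, 1683 and 3935 CPM in L100 at 10 DAP, 52361, 54662 and 43714 CPM in wild type at 15 DAP, and 4057, 7163 and 4399.8 CPM in wild type at 10 DAP (interaction 0.49, SE 0.60, adjusted p = 0.737). The spread in L100 at 10 DAP was wide, with replicate 1 highest and replicate 2 lowest.

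Of 20 starch synthesis genes 10 rose in L100 and 13 in wild type, and 0 passed the interaction test by edgeR, DESeq2 or voom, with 2 negative and 1 positive at an unadjusted p of 0.05. The median was -0.20, with 15 of 20 negative, and lay between -0.34 and 0.16 over the leave-out fits. Wild type at 15 DAP was above the other 9 libraries in 10 of the 20, against 7.85% of all genes tested. The summed level of the list was 21499 to 24595 CPM in L100 at 15 DAP, 4079 to 10435 CPM in L100 at 10 DAP, 30341 to 36956 CPM in wild type at 15 DAP and 6796 to 9272 CPM in wild type at 10 DAP. The starch synthase gene du1 (GRMZM2G141399) had 247, 229.9 and 156 CPM in L100 at 15 DAP, 176, 82.5 and 112 CPM in L100 at 10 DAP, 619.9, 496 and 483 CPM in wild type at 15 DAP, and 124, 168 and 139.7 CPM in wild type at 10 DAP. It rose by 0.77 in L100 and by 1.89 in wild type, with the smallest interaction p of the list (-1.12, SE 0.36, adjusted p = 0.164). The ADP-glucose pyrophosphorylase genes sh2 (GRMZM2G429899) and bt2 (GRMZM2G068506) gave -0.01 (SE 0.38, adjusted p = 0.995) and -0.35 (SE 0.74, adjusted p = 0.858). The granule-bound starch synthase gene of the waxy locus, listed as GBSS1 (GRMZM2G024993), gave -0.31 (SE 0.62, adjusted p = 0.847). The signs of these 3 estimates changed with the settings, and their standard errors leave interactions in either direction possible.

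The regulators of the storage program had 0 calls among 7 tested, with 1 negative at an unadjusted p of 0.05, 1 by DESeq2 and 0 by voom. The bZIP gene ohp2 (GRMZM2G007063) had the smallest p, at -0.58 (SE 0.15, adjusted p = 0.109). The bZIP gene o2 (GRMZM2G015534), a main activator of zein genes, had 121, 113 and 125 CPM in L100 at 15 DAP, 24.5, 7.66 and 42.1 CPM in L100 at 10 DAP, 457, 261 and 196 CPM in wild type at 15 DAP, and 20.9, 43.6 and 68.9 CPM in wild type at 10 DAP (-0.50, SE 0.79, adjusted p = 0.805). At 15 DAP the lines did not overlap for o2, and at 10 DAP they did. The prolamin-box binding factor gene, listed as PBF (GRMZM2G146267), gave 0.15 (SE 0.21, adjusted p = 0.765), and the embryo regulator gene vp1 (GRMZM2G133398) gave 0.33 (SE 0.45, adjusted p = 0.764). Sucrose transport and invertase genes had 0 calls among 7 by edgeR, DESeq2 or voom, with 2 negative at an unadjusted p of 0.05.

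Embryo genes had 0 calls among 10 tested by edgeR and voom and 1 by DESeq2, with 1 positive and 1 negative at an unadjusted p of 0.05. The median interaction was 0.79, and 7 of 10 were positive. The storage globulin gene glb2 (GRMZM2G026703) had 460.3, 303 and 814 CPM in L100 at 15 DAP, 7.11, 1.18 and 2.30 CPM in L100 at 10 DAP, 20.6, 27.1 and 39.7 CPM in wild type at 15 DAP, and 1.33, 6.21 and 2.44 CPM in wild type at 10 DAP. All L100 libraries at 15 DAP were above every other library. It rose by 7.23 in L100 and by 3.15 in wild type, and the interaction of 4.08 (SE 0.96) had an adjusted p of 0.0928. The oleosin gene ole1 (GRMZM2G337229), of oil bodies, gave 1.10 (SE 0.55, adjusted p = 0.342). The summed level of the embryo list was 2818 to 4484 CPM in L100 at 15 DAP, 376 to 896 CPM in L100 at 10 DAP, 1991 to 2077 CPM in wild type at 15 DAP and 458 to 721 CPM in wild type at 10 DAP, with no gene at 0 in a whole group. The part of embryo content in the interaction calls was not tested.

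Genes of the embryo surrounding region, a small endosperm domain, numbered 3 and all had positive interactions, with 0 calls by edgeR and voom, 1 by DESeq2 and 1 at an unadjusted p of 0.05. Among them esr-6 (GRMZM2G048353) gave 1.63 (SE 0.48, adjusted p = 0.139), with a fall of 1.24 in wild type (adjusted p = 0.0182). The summed level of the list was 23.8 to 36.4 CPM in L100 at 15 DAP, 20.5 to 64.1 CPM in L100 at 10 DAP, 7.51 to 16.9 CPM in wild type at 15 DAP and 30.7 to 79.0 CPM in wild type at 10 DAP, and 1 of the 4 models was at 0 in all wild-type libraries at 15 DAP. The basal transfer layer, which takes up nutrients from the mother plant, had 0 calls among 11 by edgeR, DESeq2 or voom, 2 positive at an unadjusted p of 0.05, and a median of 0.11. Its median stage change was -1.84 in L100 and -1.83 in wild type, with 7 genes that fell in L100 and 7 in wild type.

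The remaining lists gave no calls. Of 41 defence genes 0 passed by edgeR and voom and 1 by DESeq2, which called 4.31% of all genes tested. At an unadjusted p of 0.05, 4 were negative and 2 positive, and the median was -0.20. The glutathione S-transferase gene gst6 (GRMZM2G129357) had the smallest p among them, at 1.80 (SE 0.43, adjusted p = 0.0889), with 38.2, 39.5 and 28.8 CPM in L100 at 15 DAP, 16.7, 11.8 and 20 CPM in L100 at 10 DAP, 27.2, 19.9 and 31.1 CPM in wild type at 15 DAP, and 50.5, 50.4 and 22.8 CPM in wild type at 10 DAP. Glycolysis (16 tested), flavonoid (10 tested) and photosynthesis genes (12 tested) had 0 calls by edgeR, DESeq2 or voom. At an unadjusted p of 0.05 the glycolysis and photosynthesis genes each had 1 negative and the flavonoid genes 0. The photosynthesis genes had a median of -1.53, between -1.88 and -0.36 over the leave-out fits, at a low level, since the list summed to 20.4 to 63.6 CPM in L100 at 15 DAP, 11.8 to 30.9 CPM in L100 at 10 DAP, 34.1 to 58.3 CPM in wild type at 15 DAP and 13.4 to 16.4 CPM in wild type at 10 DAP.

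**Figure D5:**
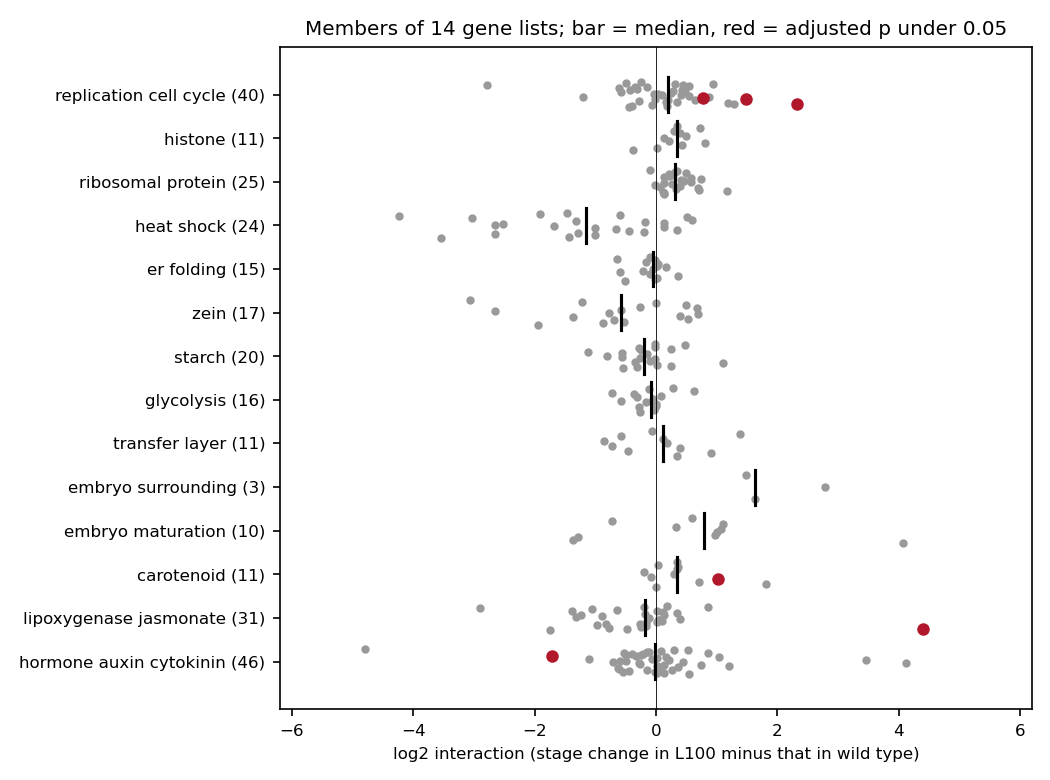
Log2 interaction of each tested gene in 14 lists, with the number of genes in brackets, the median as a black bar and the genes that passed the test in red. The 3 called replication and cell cycle genes lie to the right and CKX5 to the left, and 19 of 24 heat shock genes lie left of 0.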

How the data were processed

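Seeds were frozen in liquid nitrogen before CTAB extraction of RNA, per the labels. The submitters' processing notes name Bowtie 0.12.2 and the build B73 RefGen_v3. The quantifier, strand setting, annotation release and origin of the 2578 Maize_newGene models were not given in those sources. The authors deposited, per library, expected counts written as whole numbers, which were tested as deposited. Their normalized signal was, from the values, an unrounded estimate times 1 factor per library, and 60.5% to 63.0% of detected counts equalled that estimate within 0.01. This deposited signal gave the unrounded estimates for 1 alternative chosen after seeing the data. FPKM values were not used.

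Counts were scaled by TMM, filtered by filterByExpr and fitted with 1 mean per group over 12 libraries by the robust quasi-likelihood method of edgeR 4.0.16 in R 4.3.3. F tests were two-sided, and adjusted by Benjamini-Hochberg over 24941 genes at 0.05. Alternatives were DESeq2 1.42.0, voom in limma 3.58.1, other scalings and filters, the replicate number as a block, a merged pair of libraries and each library left out. The steps were also run on simulated counts, whose outcome is not given here and is not used as support.

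Names were looked up in a RefSeq table (Zm-B73-REFERENCE-NAM-5.0), whose coordinates were not used, and 18021 models matched, 428 of them several genes, with an informative name for 2540. The 19 gene lists are regular expressions on names, with 32 clashing names left out. Most genes were named by rule: all called genes with an informative name and at least 5 CPM in a group, the 8 smallest p-values per direction, the 2 smallest per list, and 10 fixed seed genes. The genes said above to be given or picked with their values in view or known were named outside these rules. The genes, lists and rules were chosen with earlier results of these data known. Coordinates are those of the deposited files.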

Additional observations from a re-analysis of the deposited data

Results flagged for a closer look

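Each gene below differed between the lines in its stage change by the interaction test (edgeR, adjusted p under 0.05). The value is the log2 change between 10 and 15 DAP in L100 minus that in wild type. Positive values were found for Maize_newGene_6786 (5.93), aos2 (4.40), GRMZM2G045239 (3.16), Maize_newGene_7558 (3.12), GRMZM2G056986 (3.05), GRMZM2G357834 (2.96), MCM6 (2.33), AC199541.4_FG007 (2.13), GRMZM2G005061 (1.71), PPCK1 (1.63) and GRMZM2G175140 (1.56). Smaller positive values were those of MCM7 (1.49), ROA4 (1.49), cki2 (1.46), calmodulin (1.32), GRF6 (1.20), sig3 (1.11), BCH2 (1.03), CSD4 (0.92), EREB197 (0.88), AUX6 (0.86) and cycD2 (0.78). Negative values were found for GRMZM2G133055 (-4.35), GRMZM2G178875 (-3.69), GRMZM2G133781 (-2.87), GRMZM2G011347 (-2.62), CslF6-1 (-2.43), GRMZM2G122277 (-2.14), GRMZM2G166944 (-1.94), CKX5 (-1.71), Amy2 (-1.51) and CesA-5 (-0.95). With 3 libraries in each group, single libraries were not screened for outliers.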

How the results depend on the processing

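The interaction count of 136 stayed within 1.5 times under RLE scaling, no filter, the stricter filter, the fit without the robust option, the unrounded estimates (chosen after seeing the data) and the 2-fold limit. All 136 genes kept their sign in every alternative that tested them. The count and its positive and negative parts were 1076, 476 and 600 by DESeq2, 65, 33 and 32 by voom, and 17, 9 and 8 with L100 15 DAP replicates 1 and 2 summed. By library totals the count was 74, the negative part 26, the wild-type class 19 and the same-way class 12. At an adjusted p of 0.1 it was 533. The classes (L100 alone, wild type alone, opposite, same way) had 322, 515, 67 and 161 genes by DESeq2 (11 with neither), 20, 21, 16 and 8 by voom, and 5, 4, 4 and 4 in the summed fit.

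Replicate numbers did not pair the samples, with correlations of deviations between -0.106 and 0.044 for equal numbers. With the replicate block 26 genes passed (15 positive, 11 negative), 24 of them among the 136, and the classes held 5, 7, 8 and 6. The block ended the calls of all 18 called genes with an informative name. Their adjusted p-values in that edgeR fit were between 0.0566 for CKX5 and 0.1 for AUX6, MCM7 and BCH2.

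Without each library in turn the count ranged from 11 to 221, its positive part from 6 to 142 and its negative part from 4 to 79. L100 alone ranged from 3 to 61, wild type alone from 2 to 78, opposite from 3 to 54 and same way from 2 to 28. The cause of these moves was not tested. Calls per list ranged from 0 to 3 for replication, 0 to 2 for jasmonate, 0 to 1 for carotenoid, hormone and embryo genes, and 0 to 3 for heat shock, and were 0 throughout for the other lists. By DESeq2, which called 4.31% of all genes tested, the lists had 8 heat shock, 5 replication, 3 jasmonate, 3 hormone and 1 each of regulator, embryo surrounding, embryo and defence calls. Voom left 1 replication call, and 0 in the jasmonate and carotenoid lists. The block left 0 in the replication, jasmonate, carotenoid and hormone lists, and the summed fit 0 in the replication, jasmonate and carotenoid lists. RLE scaling, the unrounded estimates and the fit without the robust option left 0 carotenoid calls.

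Reversed signs were limited to 4 uncalled genes. For sh2 the estimate was 0.00 by RLE and DESeq2, 0.01 by totals and under the stricter filter, 0.02 with no filter, 0.08 by voom and 0.04 in the summed fit, and bt2 gave 0.01 by voom. Over the leave-one-out fits sh2 ranged from -0.28 to 0.25, bt2 from -0.79 to 0.07, GBSS1 from -0.68 to 0.54 and o2 from -0.93 to 0.15. For the named called genes 453 results kept their call and 251 lost it. Depth limits models near the floor of 3 counts, and 7 called genes stayed under 5 CPM in every group.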
